A study of Arabidopsis thaliana with 11 samples.

Results

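The upper stem of Arabidopsis thaliana was compared with its expanding leaf on Affymetrix ATH1 arrays, which carry sets of short oligonucleotide probes for most genes of this plant. The comparison used the 4 stem arrays and the 3 leaf arrays, 7 of the 11 arrays in the series, chosen by their labels, and left the 4 flower arrays out. Stem samples were the top 2 inches of the axis, cleared of siliques and pedicels, from plants 29 days after germination. Leaf samples were expanding leaves from plants 15 days after germination. All plants were Columbia-0 wild type, kept with 4 plants to a 5 inch pot at day and night temperatures of 25 and 20 °C with 16 h of light, in a growth chamber or in a greenhouse. Stem RNA was prepared with Trizol and a silica column, and leaf RNA with Trizol alone, so that organ, plant age and RNA preparation changed together and cannot be told apart. No label states that replicates are separate plants or pools, so the p-values describe the spread between these samples only, and that spread may be technical. In whole organs, fewer cells of a type and less RNA per cell cannot be told apart either.

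The upper stem is an elongating axis. Its cells lengthen as cortical microtubules guide cellulose deposition and as secreted enzymes remodel xyloglucan and pectin, and its xylem and fibre cells then lay down secondary walls of cellulose, xylan and lignin. The expanding leaf grows as a blade whose mesophyll builds chloroplasts, whose epidermis forms stomata and trichomes, and whose lower side is marked by YABBY transcription factors.

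The deposited signal intensities were quantile normalised over the 7 arrays, and differences are given as log2 fold changes of intensity plus 32, with a positive value where stem was higher. The median deposited signal was 192 to 201 per array. One stem array stood apart. Stem replicate 3 had a 3'/5' signal ratio of 12.2 for the actin control, against 2.67 to 4.20 in the other stem arrays and 1.83 to 3.29 in leaf, and 13.05 for the GAPDH control, against 1.94 to 2.30 in the other stem arrays and 2.25 to 2.61 in leaf. Such ratios are read as a sign of RNA or labelling quality. It differed by at least 1 log2 unit from every other stem array in 732 of the tested probe sets, against 187 to 249 for the other stem arrays, and leaf replicate 1, the only leaf array from the growth chamber, did so from the other leaf arrays in 688. Stem and leaf arrays separated along the leading principal component (66.0% of the variance), and stem replicate 3 lay apart from all others along the next one (11.9%). Some labels were open to doubt. The scaling factors stated for stem replicates 2 and 3 each fitted the signals of the other array, and stem replicate 4 carries a greenhouse title with a growth chamber protocol. The comparison was therefore also fitted without stem replicate 3 and among the arrays of each growth site. The growth chamber fit held stem replicates 1 and 2 and leaf replicate 1, and the greenhouse fit stem replicate 3 and leaf replicates 2 and 3.

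The comparison asks which transcripts distinguish an elongating axis from an expanding blade. Of 8740 genes with a tested probe set, 828 were higher in stem (9.47%) and 771 lower (8.82%), at an adjusted p under 0.05 and at least a 2-fold difference. Without stem replicate 3, 828 genes were higher (9.79%) and 806 lower (9.53%). Among growth chamber arrays alone 7.64% were higher and 5.54% lower, and among greenhouse arrays alone 11.6% and 13.6%. Large differences lay more often on the stem side. Among genes with an absolute log2 fold change of at least 3, 85 were higher in stem and 33 lower. At 4 or more the counts were 22 and 14, and at 5 or more 5 and 4. The signal filter asked more of genes seen only in leaf, which had to pass it in all leaf arrays. The arrays of the organs did not overlap for 794 of the higher and 750 of the lower genes, while over all tested genes, called or not, 18.4% had every stem array above every leaf array and 21.3% had every stem array below. In 150 of the higher genes every leaf array lay under the signal minimum of 100, and in 93 of the lower genes every stem array did. For such genes the size of the fold depends on the added 32. Scaling each array to GapC, a cytosolic glyceraldehyde-3-phosphate dehydrogenase that the labels name as the scale, shifted the median difference of all probe sets up by 0.53 log2 units and split the called probe sets into 3512 higher and 564 lower, so that 86.2% of calls were on the stem side (over genes, 22.7% of those tested were higher and 3.07% lower). As normalised here, 1627 of 15975 probe sets were higher (10.2%) and 1618 lower (10.1%), with 50.1% of calls on the stem side. Small differences therefore rest on the scale used, and the GapC probe set itself had a log2 fold change of -0.41 (adjusted p = 0.078). With scaling to the trimmed mean only, GapC was at -0.60 (adjusted p = 0.016). Its deposited signal was 7506 to 9116 in stem, against 10659 to 14103 in leaf.

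**Figure D1:**
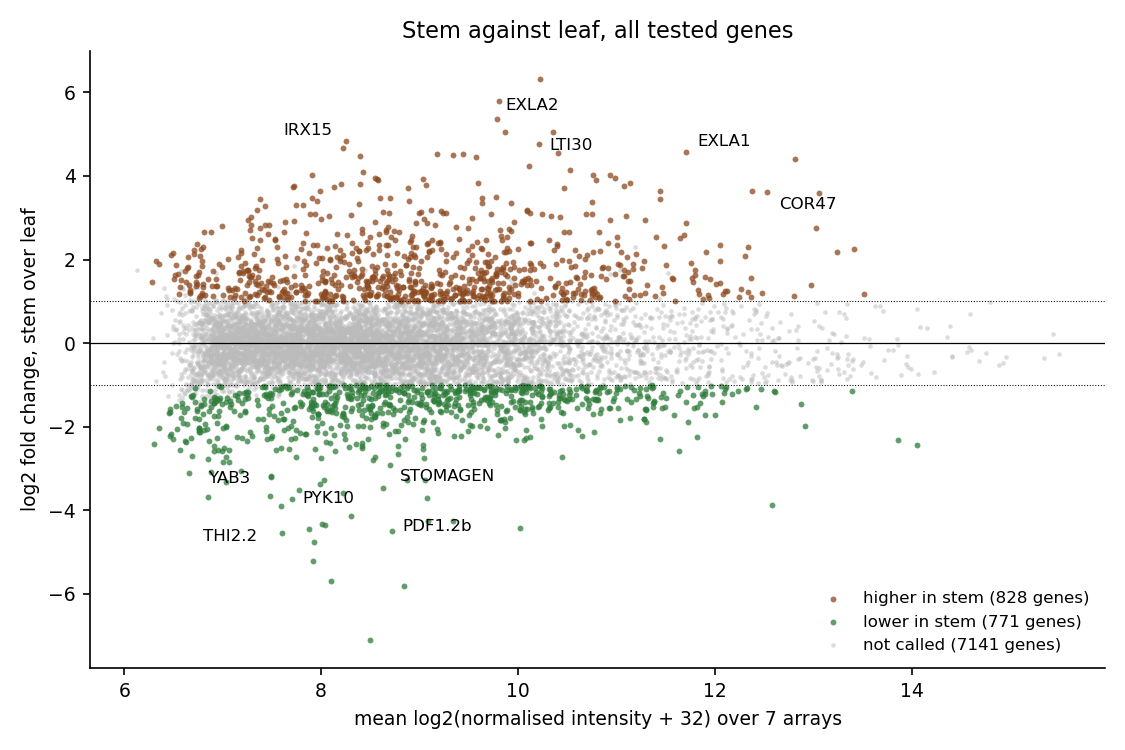
Each point is 1 of the 8740 tested genes. The horizontal axis is the mean log2(normalised intensity + 32) over the 7 arrays and the vertical axis is the log2 fold change of stem over leaf, with dotted lines at 1 and -1. The 828 genes higher in stem (brown) and the 771 lower in stem (green) lie over the whole range of signal. EXLA2, IRX15 and LTI30 are among the largest positive named differences, and THI2.2 and PDF1.2b among the largest negative ones.

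Secondary wall xylan genes were higher in stem. The list held 4 genes, all tested, and 3 rose in stem (9.47% of all genes did) with a list median of 3.49. IRX15 (AT3G50220), a domain of unknown function protein needed for normal xylan chains, had normalised intensities of 1666, 1318, 1732 and 637 in stem, against 14.6, 11.8 and 12.999 in leaf, so that no leaf array reached the signal minimum. Its partner IRX15-L (AT5G67210) had 3325, 2773, 2161 and 1764 in stem, against 12.5, 149 and 127 in leaf. The log2 fold change was 4.83 ± 0.32 (SE, adjusted p = 4.5e-06) for IRX15 and 4.51 ± 0.44 (SE, adjusted p = 5.4e-05) for IRX15-L. GUT2 (AT1G27440), better known as IRX10, a xylosyltransferase that extends the xylan backbone, had 3159.5, 2990.1, 1029.8 and 1249 in stem, against 329, 302 and 307 in leaf. All 4 of its stem arrays stood above leaf, with replicates 1 and 2 higher than replicates 3 and 4. GUT1, its close relative, did not pass, with a log2 fold change of 0.60 (adjusted p = 0.022). Xylan genes are also the marker check for the stem label, so that check is not separate from the result above. Of 14 fixed xylem and stem markers, the probe table named a probe set for 2, IRX10 and IRX15, and both were higher in stem. AT4G08160, for which the gene table gives the synonym ATXYN3 and whose family hydrolyses xylan, was 8.77-fold higher in stem, with 753, 851, 1612 and 867 in stem, against 105, 77.98 and 67.7 in leaf.

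Lignin synthesis was poorly covered. HCT, a hydroxycinnamoyltransferase of monolignol synthesis, had a log2 fold change of 0.54 and 4CL8 one of 0.41, and neither passed. A pair of neighbouring genes outside that list did differ. BGLU45 (AT1G61810) and BGLU46 (AT1G61820), β-glucosidases that act on monolignol glucosides, rose by 3.48 and 3.05 log2 units. BGLU45 had 769, 1136, 482 and 395 in stem, against 56.6, 5.01 and 35.1 in leaf, and BGLU46 657, 1262, 855 and 445 in stem, against 57.8, 57.4 and 72.3 in leaf. All stem arrays of both genes lay far above the highest leaf array. CYP84A4, a relative of the lignin enzyme ferulate 5-hydroxylase, was higher in stem by 1.37 ± 0.33 (SE, adjusted p = 0.0088), while UGT72E1, a glucosyltransferase of lignin precursors, was lower by -2.30 ± 0.39 (SE, adjusted p = 0.0014) as a signed log2 difference.

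Enzymes that cut and rejoin xyloglucan, the XTH family, formed the next stem group. Of 10 with a probe set 7 were tested, and 4 rose in stem (9.47% of all genes did). None was lower, and the list median was 3.04. XTH18 (AT4G30280) had 1119, 1831, 3837 and 2985 in stem, against 111, 218 and 197 in leaf, a difference of 3.47 ± 0.38 log2 units (SE, adjusted p = 0.00011). XTH19 (AT4G30290), its neighbour on the chromosome, had 631, 745, 804 and 471 in stem, against 3.83, 55.1 and 55.1 in leaf. XTH16 and XTH33 rose by 3.04 and 3.11. EXGT-A3, XTH20 and XTH32 stayed under the 2-fold threshold, at 0.89, 0.53 and 0.27. The family was therefore split between members with large differences and members with small ones. CSLC04 (AT3G28180), a synthase of the xyloglucan backbone, was 3.11-fold higher, with 5082, 6341, 6735 and 5051 in stem, against 2442, 1355 and 1841 in leaf, and its relative CSLC12 was 2.49-fold higher.

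Among expansins the calls with all arrays lay in 1 subfamily. All 3 expansin-like A genes rose in stem, whereas none of the other 9 tested expansins, of classes EXPA, EXPB and EXLB, passed in either direction, with log2 fold changes of -0.90 to 0.82. Expansins loosen walls at acid pH without cutting them, and the activity of the expansin-like A proteins is less well known. EXLA2 (AT4G38400) had the largest difference of any gene with a symbol, with intensities of 5103, 6378, 2717 and 3939 in stem, against 101, 57.3 and 66.6 in leaf. EXLA1 (AT3G45970) had 10552, 12202, 21196 and 10454 in stem, against 645, 385 and 556 in leaf, and EXLA3 (AT3G45960) had 1011, 1578, 2599.5 and 898 in stem, against 115, 44.1 and 81.9 in leaf. The differences were 5.37 ± 0.28, 4.57 ± 0.27 and 3.72 ± 0.36 log2 units (SE), with adjusted p of 1.1e-06, 2.3e-06 and 5.2e-05. Stem replicate 3 was the lowest stem array for EXLA2 and the highest for EXLA1 and EXLA3, and without it the differences were 5.58, 4.32 and 3.43. The list median was -0.01, against 0.10 without stem replicate 3 and 0.34 under GapC scaling, and most of the list did not pass. Without that array EXPB3 passed as well, at 1.02. Among growth chamber arrays alone the EXLA2, EXLA1 and EXLA3 differences were 5.39, 4.01 and 3.15, and among greenhouse arrays alone 4.89, 5.53 and 4.83. Within single sites some other expansins passed as lower in stem.

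Pectin genes rose as well. Of 5 with a probe set, 4 were tested and all 4 were higher in stem (9.47% of all genes were), with a list median of 1.84. PME61 and PMEPCRF belong to the pectin methylesterases, which remove methyl groups from pectin in the wall. PMEPCRF (AT5G53370) had 7112, 7360.4, 6500.1 and 5974 in stem, against 1084, 1267 and 1122 in leaf, a 5.68-fold difference with little spread within either organ. PME61 (AT3G59010) had 5447, 4124, 2163 and 2117 in stem, against 413, 535 and 501 in leaf, with growth chamber replicates 1 and 2 above replicates 3 and 4. GAUT15, of the galacturonosyltransferase family, and ATPMEPCRB, another methylesterase, passed with 1.18 and 1.07. Without stem replicate 3 only 3 of the 4 passed.

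TBL proteins add acetyl groups to wall polysaccharides, xylan among them. Of 23 TBL genes with a probe set 18 were tested. Among these 7 were higher in stem (9.47% of all genes) and 1 lower (8.82%), with a list median of 0.65. TBL38 (AT1G29050) had 3733, 2787, 3595 and 2671 in stem, against 395, 348 and 333 in leaf, and AT2G31110, with the synonym TBL40, had 2362, 1738, 1966 and 2331 in stem, against 252, 209.6 and 195 in leaf. Their differences were 3.03 ± 0.18 and 3.08 ± 0.18 log2 units (SE, adjusted p = 2.3e-06 and 2.2e-06). TBL36 rose by 2.71, and TBL37, TBL34, TBL45 and TBL39 by 1.69, 1.65, 1.46 and 1.07. TBL25 passed too once stem replicate 3 was left out, at 1.04. TBL26 (AT4G01080) went the other way, with 119, 136, 51.2 and 157 in stem, against 280.2, 3431 and 3410.4 in leaf. Its greenhouse leaf arrays, replicates 2 and 3, were far above the growth chamber leaf array, replicate 1. Within the growth chamber its difference was -0.97 and did not pass, and within the greenhouse it was -5.42. Among glucomannan synthases of the CSLA family, CSLA03 was higher in stem at 1.07 ± 0.33 (SE, adjusted p = 0.031) and CSLA01 lower at -1.74 ± 0.56 (SE, adjusted p = 0.035), both with arrays that overlapped between the organs. The CSLA01 call was lost without stem replicate 3 (-1.49), and in the growth chamber its value was 0.057.

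**Figure D2:**
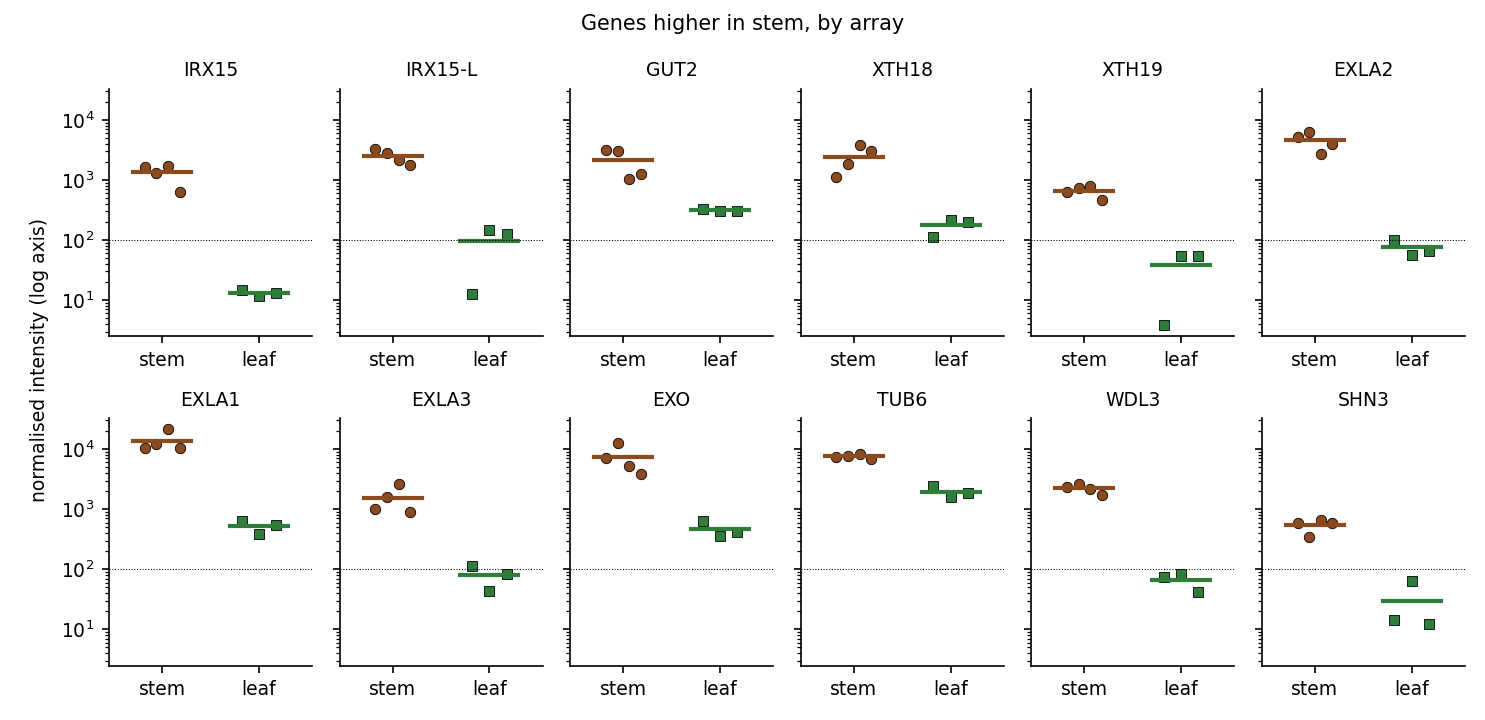
Normalised intensity on a log axis in each stem array (brown circles) and leaf array (green squares), replicates in order from left to right, for 12 genes of the cell wall, cytoskeleton and cuticle. Horizontal bars are means and the dotted line is the signal minimum of 100. In all 12 panels every stem array lies above every leaf array. The naming rule required this of some of them, and 18.4% of all tested genes showed it.

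Most tubulin and microtubule genes were higher in stem. Of 10 tubulins and microtubule proteins, all tested, 7 rose in stem (9.47% of all genes did) and none fell, with a list median of 1.15. AT3G23090, with the synonym WDL3, a microtubule-associated protein that acts in hypocotyl elongation, had 2307, 2660.3, 2167 and 1704 in stem, against 73.04, 83.1 and 41.8 in leaf, so that leaf stayed under the signal minimum. The difference was 4.52 ± 0.22 log2 units (SE, adjusted p = 6.2e-07). β-Tubulins differed in degree. TUB6 had 7464, 7644, 8374 and 6957 in stem, against 2434, 1609.6 and 1834 in leaf, and TUB1, TUB6 and TUB9 rose by 1.86, 1.96 and 1.14, whereas TUB7 and TUB5 did not pass at 0.91 and 0.033. SPR1, which acts at microtubule plus ends, and TUA6, an α-tubulin, rose by 1.17 and 1.17. ACT11 (AT3G12110), an actin, was 4.50-fold higher in stem, with 3114, 2867, 4211 and 3048 in stem, against 759, 794 and 576 in leaf, and WLIM2a, a LIM protein that bundles actin filaments, was 3.05-fold higher. They were the 2 of 5 tested actin genes that passed, and none fell.

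Receptor kinases gave few calls, and secreted peptides and tetraspanins gave more. Of 9 tested receptor kinases and glutamate receptors, 1 was higher in stem (9.47% of all genes) and 1 lower (8.82%). The higher one was THE1 (AT5G54380), a kinase that senses wall integrity, with 2099, 1771, 1665 and 1478 in stem, against 561, 306 and 263 in leaf, a 4.55-fold difference. RALFL genes encode secreted peptides that bind receptors of the same kinase family. RALFL22 had 2195, 3417, 3603 and 2249 in stem, against 357, 267 and 260.1 in leaf, and RALFL22, RALFL32 and RALFL24 rose by 3.12, 2.08 and 1.38. The tetraspanins TET2, TET3, TET7, TET8 and TET9, small membrane proteins, passed with differences of 1.11 to 1.65. The list that holds these families had 18 tested genes, of which 8 rose (9.47% of all genes did) and none fell. TET9 lost its call without stem replicate 3, at 1.33. EXO (AT4G08950), a brassinosteroid-induced gene that promotes cell expansion, had 7145, 12749, 5221 and 3918 in stem, against 637, 354 and 423 in leaf, and BRL1, a brassinosteroid receptor of vascular cells, was higher by 1.97 ± 0.42 log2 units (SE). Every stem array of EXO was far above the highest leaf array, and no overlap was a condition of the rule that named it. Of the 4 gibberellin genes tested none passed, with a range of -0.25 to 0.31.

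**Figure D3:**
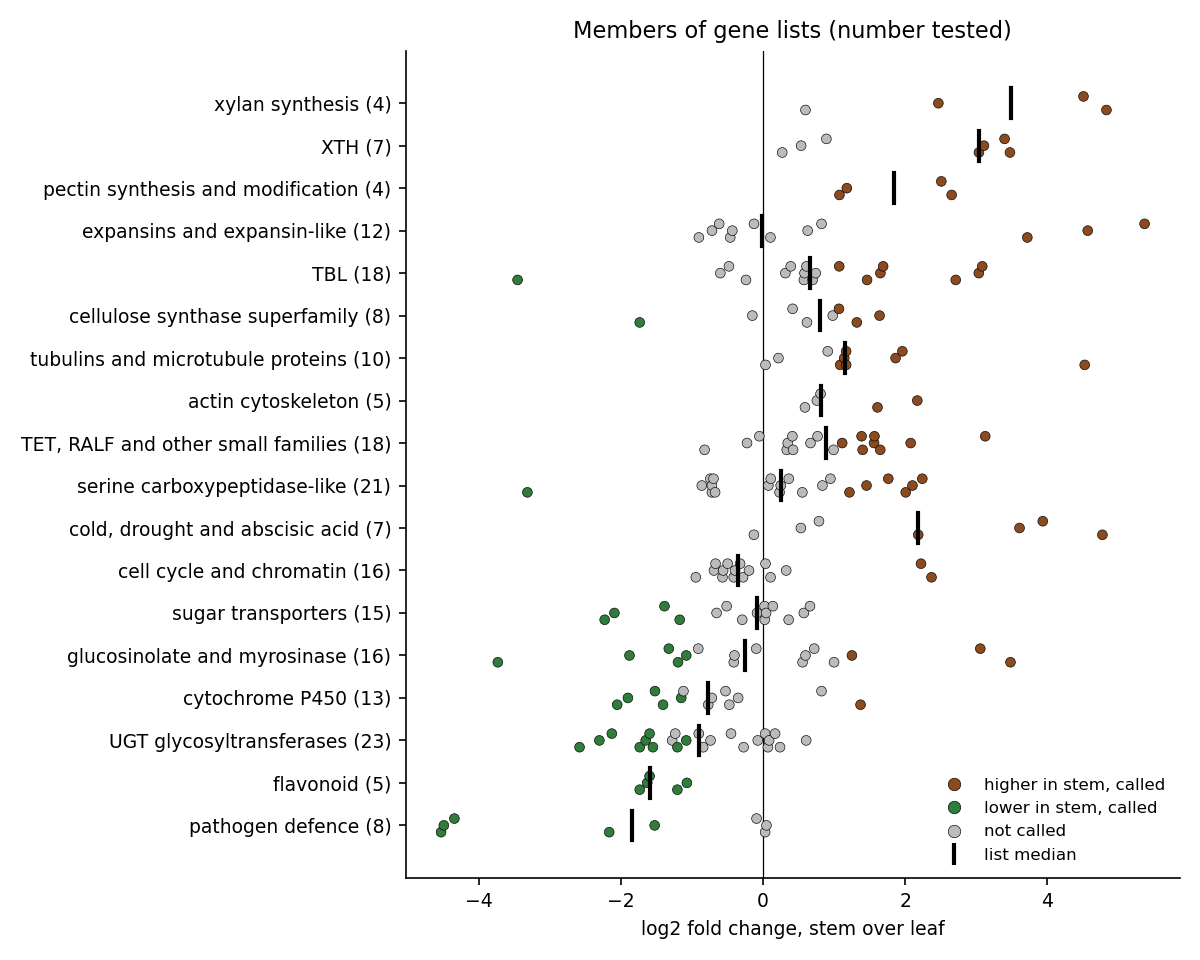
Log2 fold change of stem over leaf for each tested member of 18 gene lists, with the number tested in brackets. Brown points were called higher in stem, green points lower in stem, grey points passed neither way, and black bars are list medians. Xylan, XTH and pectin genes lie to the right and flavonoid and pathogen defence genes to the left, while expansins, TBL genes and carboxypeptidases hold a few far members beside many near 0.

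Cuticle genes went both ways, with 2 of 4 tested higher in stem (9.47% of all genes) and 1 lower (8.82%). SHN3 (AT5G25390), an AP2/ERF factor that promotes cutin and wax synthesis, had 599, 349, 668 and 599 in stem, against 14.3, 62.7 and 12.3 in leaf. AT5G61590, with the synonym Decrease Wax Biosynthesis, a repressor of wax genes, was also higher in stem, with 10206, 9127, 4818 and 8237 in stem, against 3366, 437 and 737 in leaf. Both organs were above the signal minimum for this repressor, and growth chamber leaf replicate 1 was well above the other leaf arrays. WSD1, which makes the wax esters of stems, rose by 1.32 ± 0.36 (SE, adjusted p = 0.016), a call lost without leaf replicate 1 and among greenhouse arrays alone (0.95), against 2.22 in the growth chamber. AT4G13840, with the synonym CER26, which extends the longest fatty acids of leaf wax, went the other way. It had 109, 94.8, 56.5 and 13.7 in stem, against 1531, 1752 and 1492 in leaf, a difference of -4.13 ± 0.35 log2 units (SE, adjusted p = 2.3e-05). LUP5, a member of the triterpene-forming oxidosqualene cyclases, had 872, 829, 875 and 542 in stem, against 18.7, 12.2 and 19.7 in leaf.

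Of 4 tested leaf patterning genes 2 were lower in stem, and so were 2 of 3 tested trichome and guard cell genes. None was higher in either list, and 8.82% of all genes were lower. YAB3 (AT4G00180), a YABBY factor of the lower leaf side, had 8.68, 115, 8.58 and 62.9 in stem, against 571, 638 and 608 in leaf, and YAB5 had 145, 84.9, 26.7 and 83.6 in stem, against 479, 511 and 482 in leaf. YAB3 fell by 3.20 log2 units and YAB5 by 2.26 (adjusted p = 0.0004 and 0.00061). TCP15 and LBD16, the other tested members of that list, had 0.15 and -0.15. STOMAGEN (AT4G12970), a mesophyll peptide that promotes stomata, had 201, 177, 80.8 and 139 in stem, against 1096, 1452 and 1313 in leaf, a difference of -2.90 ± 0.26 log2 units (SE). TRY, a repressor of trichome fate, was 2.17-fold lower in stem, but its difference was -0.45 and did not pass in the growth chamber arrays. Leaf arrays were close together for YAB3, YAB5 and STOMAGEN, and no stem array reached them.

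Hormone response genes were few. RR16 (AT2G40670), a type-A cytokinin response regulator, had 29.4, 4.21, 16.4 and 71.8 in stem, against 287, 320.1 and 320.0 in leaf, and IAA29 (AT4G32280), an Aux/IAA repressor, had 31.03, 156, 25.1 and 80.4 in stem, against 983, 206 and 316 in leaf. RR16 fell by 2.56 and IAA29 by 2.23 log2 units in stem (adjusted p = 0.00069 and 0.0092). The leaf arrays were close together for RR16 and widely spread for IAA29, where growth chamber replicate 1 was highest. The other 5 auxin genes and 2 cytokinin genes tested did not pass. Over all genes 8.82% were lower.

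Cell division genes showed no shared shift. Of 16 in the list, 14 did not pass, among them the Aurora kinases AUR1, AUR2 and AUR3 at 0.10, -0.41 and -0.50, and the list median was -0.36, which turned to 0.22 under GapC scaling. The 2 that passed were higher in stem (9.47% of all genes were), and without stem replicate 3 the histone gene HTB1 passed as lower, at -1.03. SIM (AT5G04470), an inhibitor of cyclin-dependent kinases that favours endoreduplication, had 1597, 1109, 1095 and 1783 in stem, against 295, 269 and 241 in leaf, and cdc2cAt, a kinase related to the cell cycle kinases, had 192, 289, 100.02 and 197 in stem, against 7.98, 8.58 and 13.1 in leaf. In cdc2cAt stem replicate 3 sat at the signal minimum, and within the greenhouse the call was lost.

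Chloroplast proteins are encoded partly in the plastid and partly in the nucleus, and these groups gave different counts. All 35 plastid-encoded genes for photosystems, the cytochrome complex, ATP synthase and related proteins were tested. Of these 15 were higher in stem (9.47% of all genes were) and none lower, with a median of 1.34. The 10 plastid-encoded subunits of the NDH complex gave 3 higher, and the 21 plastid genes for RNA polymerase and ribosomes 6 higher, with medians of 0.72 and 0.47 and none lower. None of the 11 nuclear light harvesting, photosystem and related genes or of the 3 Calvin cycle genes passed, with medians of -0.37 and -0.53, the first of which was 0.04 under GapC scaling. RCA, rubisco activase and the only leaf marker of 10 with a named probe set, had 25295, 23007, 30223 and 25295 in stem, against 33029.9, 39009 and 39984 in leaf, a signed difference of -0.53 that did not pass. As the only leaf marker with a probe set did not pass, no called marker checked the leaf label.

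The plastid-encoded difference varied between arrays and between the fits for each site. psbK, a small photosystem II subunit, had 36490.5, 37126, 7404 and 37506 in stem, against 1336, 1118 and 5493 in leaf, and psbI, another, had 17201, 14306, 26020.5 and 19715 in stem, against 2772, 1258 and 6135 in leaf. For psbK, stem replicate 3 was close to leaf replicate 3, and without stem replicate 3 the psbK difference was 4.15, against 3.59 ± 0.65 (SE) with it. rbcL, the large subunit of rubisco, was steadier, with 719, 592, 952 and 694 in stem, against 157, 158 and 124 in leaf and a difference of 2.10 ± 0.20 (SE, adjusted p = 4.6e-05). The rbcL signal was far below that of nuclear RCA in both organs. How closely these probe sets follow the amount of plastid transcript was not tested. rpoB, a subunit of the plastid RNA polymerase, had 690.1, 852, 762 and 343 in stem, against 28.5, 96.1 and 141 in leaf. Over the 35 genes the mean log2 level was 12.62, 12.64, 11.73 and 12.56 in the stem arrays, against 10.53, 10.94 and 11.82 in the leaf arrays, so stem replicate 3 lay below leaf replicate 3. Without stem replicate 3, 20 of the 35 were higher, where 9.79% of all genes were. Among growth chamber arrays alone the psbK and psbI differences were 4.67 and 2.43, and among greenhouse arrays alone 1.63 and 3.30. The median over the 35 genes in the greenhouse arrays was 0.30. Each of these splits rests on 1 array of an organ, which is assumed to vary like the others. In the greenhouse fit that array is stem replicate 3, so site and array cannot be told apart there. For the plastid RNA polymerase and ribosomal genes the greenhouse median turned to -0.21. The high 3'/5' ratios of stem replicate 3 move with this result, and their part in it was not tested.

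**Figure D4:**
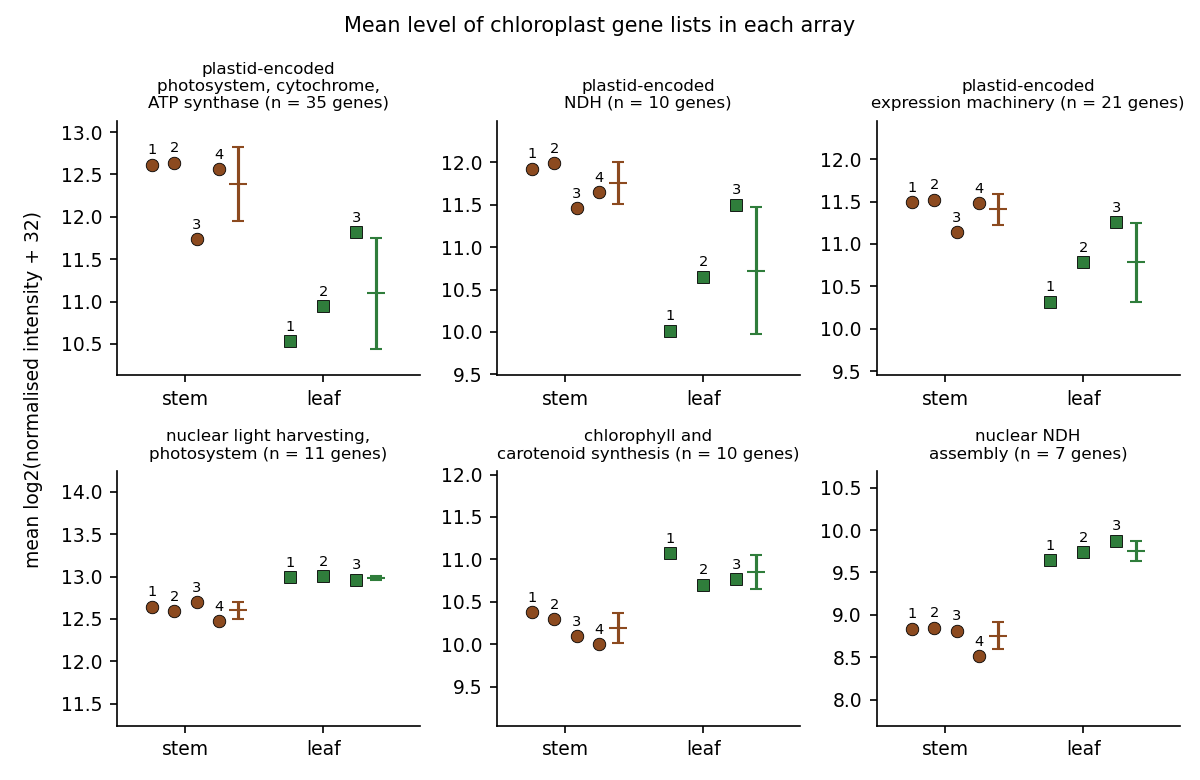
Mean log2(normalised intensity + 32) of 6 chloroplast gene lists in each array, numbered by replicate, with stem in brown and leaf in green. Short bars with whiskers are the mean and SD over the 4 stem and the 3 leaf arrays, and every panel spans 3 log2 units. Plastid-encoded lists are higher in stem with overlap in stem replicate 3 and leaf replicate 3, and the 3 lists plotted for nuclear genes, light harvesting, pigment synthesis and NDH assembly, are lower in every stem array than in any leaf array as normalised here, although the light harvesting median turned to 0.04 under GapC scaling.

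Some nuclear genes of chloroplast assembly and pigment synthesis were lower in stem. Of 8 genes for NDH assembly and nuclear NDH subunits, 7 were tested and 4 fell (8.82% of all genes did), with a median of -1.16. Under GapC scaling the median was -0.58 with 1 call, where 3.07% of all genes were lower. In the growth chamber arrays alone fewer of them passed. CRR41 (AT1G51100), an NDH assembly factor, had 276, 302, 322 and 261 in stem, against 961, 1209 and 1318 in leaf, and CRR42 had 269, 165, 254 and 133 in stem, against 542, 593 and 531 in leaf. NdhL, a nuclear-encoded subunit, and CRR21, an RNA editing factor for an NDH transcript, also passed, at -1.19 and -1.16. HEME1 and HEME2, uroporphyrinogen decarboxylases of the chlorophyll and haem pathway, were the 2 of 10 pigment genes that passed, at -1.32 and -1.56, and under GapC scaling none was lower and 1 higher. AT4G38100, with the synonym CURT1D and a member of the family that bends thylakoid membranes, and AT5G55580, with the synonym mTERF9, a chloroplast protein acting in ribosome assembly, fell by 2.09 and 2.72 log2 units in stem. For AT5G55580 the intensities were 29.4, 22.5, 12.4 and 46.2 in stem, against 355, 402 and 307 in leaf, so that it was under the signal minimum throughout stem.

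Antimicrobial defence genes gave the largest negative differences among genes with a symbol. Of 18 pathogen defence genes with a probe set 8 were tested, 5 fell (8.82% of all genes did) and none rose, with a median of -1.85. THI2.2 (AT5G36910), a thionin, had 26.6, 17.7, 16.5 and 14.01 in stem, against 1174, 1152 and 1084 in leaf. PDF1.2 (AT5G44420), a jasmonate-responsive defensin, had 63.4, 46.7, 50.3 and 12.2 in stem, against 1442, 1360.2 and 1511 in leaf, and PDF1.2b, read by a probe set that can hybridise to related transcripts, had 83.3, 38.5, 92.7 and 119 in stem, against 2958, 1838 and 2772 in leaf. Every stem array of THI2.2 and PDF1.2 was under the signal minimum, and the leaf arrays of each were close together. The differences were -4.53 ± 0.21, -4.34 ± 0.27 and -4.49 ± 0.28 log2 units (SE), with adjusted p of 5.1e-07, 2.8e-06 and 3e-06. With a pseudocount of 1 the THI2.2 difference was -5.89 and with 100 it was -3.38. CHI, a chitinase, fell by 2.17 log2 units. The other thionin, THI2.1, had -0.093 and did not pass, and none of the 3 jasmonate genes tested passed.

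Glucosinolate genes and β-glucosidases went both ways. Of 16 tested, of 27 with a probe set, 3 were higher in stem (9.47% of all genes) and 5 lower (8.82%). PYK10 (AT3G09260), a β-glucosidase of endoplasmic reticulum bodies best known from roots and seedlings, had 114, 56.1, 8.40 and 10.8 in stem, against 1652, 464 and 880.3 in leaf. Every leaf array was above every stem array, with a wide spread within leaf. BCAT4 (AT3G19710), which starts the side chain of methionine glucosinolates, had 1139, 903, 2809.6 and 1371 in stem, against 5014, 5243 and 5637 in leaf, with stem replicate 3 the highest stem array, and its call was lost in the greenhouse arrays alone (-0.98). UGT74B1, which glucosylates the glucosinolate core, and AOP1, of a side chain dioxygenase family, fell by 1.08 and 1.33 log2 units, and BGLU44 passed as well. Among greenhouse arrays alone fewer of the list were lower, and without stem replicate 3 BGLU47 passed as lower (-1.08). The 3 higher in stem were BGLU45, BGLU46 and BGLU25.

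All 5 flavonoid genes tested, of 8 with a probe set, were lower in stem (8.82% of all genes were), with a median of -1.60. In the growth chamber arrays alone the calls were lost, with a median of -1.02. DFR, dihydroflavonol reductase, had 216, 243, 255 and 199.6 in stem, against 328, 713 and 574 in leaf, and UF3GT, an anthocyanin glycosyltransferase, had 73.05, 79.1, 24.3 and 8.68 in stem, against 130.2, 254 and 264 in leaf. UGT78D1 and UGT78D2, flavonol glycosyltransferases, fell by 1.60 and 1.21 log2 units. CHIL, a chalcone isomerase relative, had 30.2, 157, 347 and 143 in stem, against 230.1, 707 and 684 in leaf with overlapping arrays (adjusted p = 0.045). It lost its call in most alternatives, among them those without stem replicate 1, 2 or 4 or without leaf replicate 2 or 3. For UF3GT and UGT78D1 the growth chamber leaf array was well below the greenhouse ones, and within the growth chamber the UF3GT difference was -0.58. The UGT glycosyltransferases as a family gave 9 lower and none higher among 23 tested, of 51 with a probe set, with a median of -0.91. The UGT and flavonoid lists share members, so their counts are not separate results. UGT87A2 had 8.33, 9.15, 76.6 and 36.05 in stem, against 305, 390.1 and 281 in leaf. Among growth chamber arrays alone the calls were lost and the median was -0.58. Leaving out stem replicate 3 gave 10 lower.

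Of 13 cytochrome P450 genes tested, 5 were lower in stem (8.82% of all genes were) and 1, CYP84A4, was higher (9.47%). The 5 were of the CYP71B group, to which many of the untested list members also belong. Within each growth site alone fewer of the list were called lower. CYP71B26 had 249.9, 357, 386 and 184 in stem, against 936, 1428 and 1558 in leaf, and CYP71B23 had 55.9, 60.4, 38.5 and 9.55 in stem, against 359, 154 and 213 in leaf. The serine carboxypeptidase-like family gave 6 of 21 tested higher in stem and 1 lower. Without stem replicate 3, when scpl28 was not tested, 5 were higher. scpl48 (AT3G45010) had 3349, 3031, 3576 and 2478 in stem, against 629.6, 767 and 691 in leaf, and scpl47 had 161, 205, 216 and 119 in stem, against 22.2, 7.16 and 5.71 in leaf. scpl46 (AT2G33530) was the exception, with 8.58, 18.3, 34.4 and 10.3 in stem, against 334, 556 and 506 in leaf, a difference of -3.32 ± 0.32 log2 units (SE, adjusted p = 4.9e-05).

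**Figure D5:**
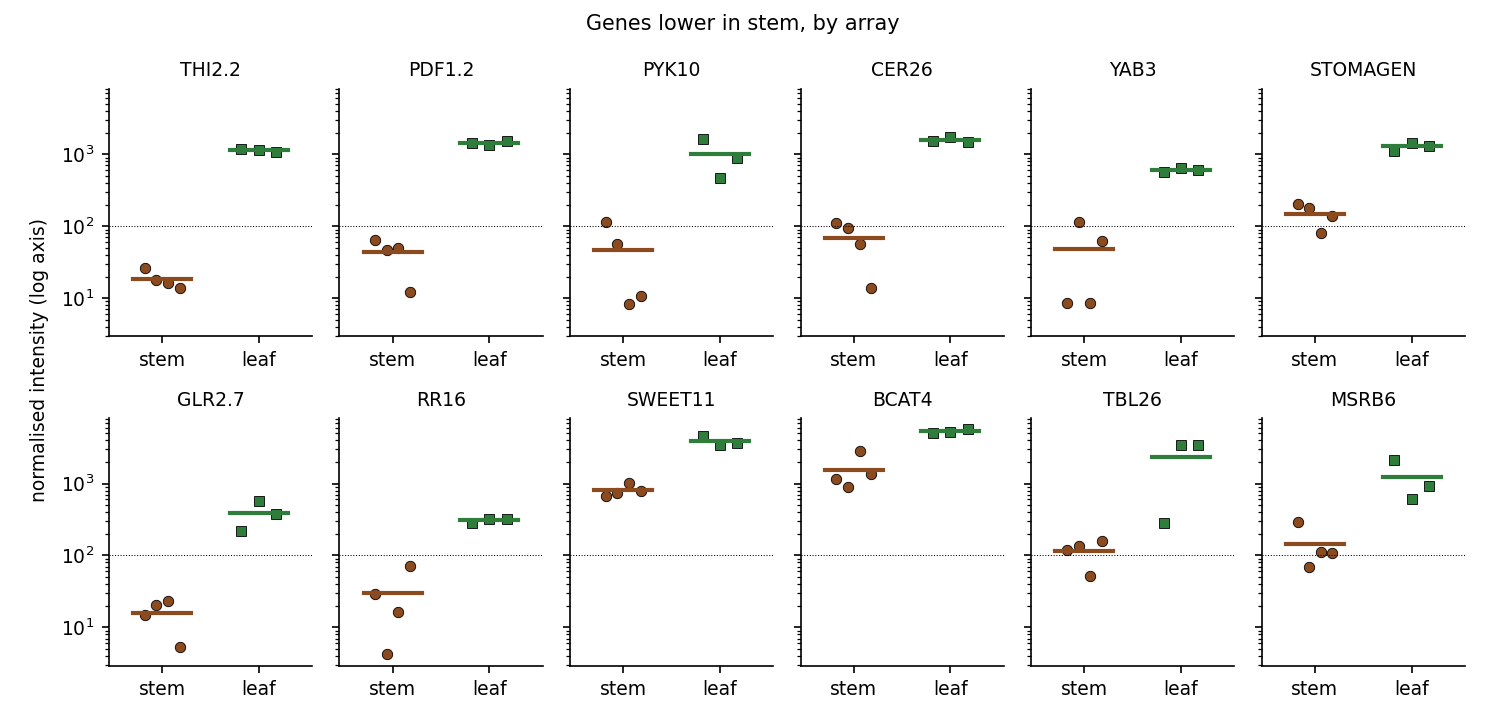
Normalised intensity on a log axis in each stem array (brown circles) and leaf array (green squares) for 12 genes lower in stem, with means as bars and the signal minimum of 100 dotted. In every panel the stem arrays lie below all leaf arrays. The naming rule required this of some of them, and 21.3% of all tested genes showed it. TBL26, MSRB6 and PYK10 show the widest spread among leaf arrays, and PDF1.2, YAB3 and RR16 little.

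Sugar transporters of the SWEET family that passed were all lower in stem. They were 4 of 15 tested sugar transporters (8.82% of all genes were lower), SWEET1, SWEET2, SWEET4 and SWEET11. The list median was -0.09, against 0.43 under GapC scaling. SWEET11 (AT3G48740), which exports sucrose for phloem loading in leaves, had 667, 743, 1033 and 776 in stem, against 4575, 3400.1 and 3649 in leaf, a 4.69-fold difference. SWEET2, a vacuolar member, had 238, 387, 89.7 and 193 in stem, against 651, 1217 and 1163 in leaf. Its difference was -1.03 in the growth chamber arrays, where it did not pass, and -3.32 in the greenhouse arrays. SWEET4 lost its call without stem replicate 3, at -1.06. ATSPS4F (AT4G10120), a sucrose phosphate synthase, had 135, 84.6, 425 and 85.4 in stem, against 554, 1157 and 948 in leaf, with stem replicate 3 well above the other stem arrays. The other 5 starch and sucrose genes did not pass. In sulfur assimilation, APS4, an ATP sulfurylase, was higher in stem by 2.05 ± 0.23 and SIR, sulfite reductase, was lower at -1.32 ± 0.18 log2 units (SE).

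Cold and dehydration genes were among the strongest in stem. Of 7 tested, 4 rose (9.47% of all genes did) and none fell, with a median of 2.18. LTI30 (AT3G50970), a dehydrin that protects cells when water is lost, had 6211, 4366, 5179 and 3951 in stem, against 222, 104 and 133 in leaf. COR47 (AT1G20440), another dehydrin, had 18925, 17201, 16925 and 15972 in stem, against 1644, 1208 and 1334 in leaf. COR27, a cold-regulated protein that also acts on the clock, had 1691, 1492, 1248 and 2401 in stem, against 246, 15.9 and 69.7 in leaf, and COR15B, a chloroplast protectant, 5622, 3565, 4236 and 3087 in stem, against 1534, 523 and 791 in leaf. For all 4 genes every stem array was above every leaf array, as it was for 18.4% of all tested genes. The rule that named LTI30, COR47 and COR27 required this. The LTI30 and COR47 differences were 4.77 ± 0.24 and 3.61 ± 0.16 log2 units (SE, adjusted p = 9.6e-07 and 4e-07). COR15A, RD2 and HVA22C did not pass, at 0.53, 0.79 and -0.13.

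Other stem-high genes named by size were AT4G33150, with the synonym LKR, the enzyme that starts lysine breakdown, with 923, 1462, 1279 and 1616 in stem, against 159, 124 and 183 in leaf, ATG8E and ATG8H, autophagy proteins, at 2.28 and 1.86, and bZIP44 and BZIP53, related bZIP factors of sugar and amino acid responses, at 2.05 and 1.81. GSTF4, a glutathione transferase, passed at 1.21, and did not pass among growth chamber arrays (1.27), among greenhouse arrays (1.27) or with a pseudocount of 100 (0.85). On the leaf side GLR2.7, a glutamate receptor-like channel, had 15.01, 20.5, 22.998 and 5.43 in stem, against 222, 572 and 382 in leaf, and MSRB6, a methionine sulfoxide reductase, had 295, 68.8, 113 and 108 in stem, against 2151, 618 and 931 in leaf. GSTU16 passed at -1.54, and AT3G09720, an RNA helicase with the synonym AtRH57, at -1.02, just past the threshold. So did AT4G00780 at -1.03. The largest differences of all belonged to genes with no symbol in the tables used here. AT1G22480 had 8658, 9688, 6928 and 6277 in stem, against 90.6, 68.2 and 43.5 in leaf, and AT2G03200 had 6899, 5914, 4798 and 3109 in stem, against 22.6, 107 and 64.9 in leaf. AT1G23130 had 10.6, 8.13, 9.14 and 20.2 in stem, against 5874, 6044 and 5956 in leaf, and AT1G66100 had 75.9, 33.9, 41.6 and 52.9 in stem, against 6356, 3212 and 4656 in leaf.

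Markers of other organs gave little. Of 12 flower and anther markers the probe table named a probe set for 5, AMS, ATA27, EMS1, PLIM2a and ANX2, and none reached the filter. Their summed intensity was 74.3 to 212 in the stem arrays, against 161 to 240 in the leaf arrays. Of 46 floral identity and flowering genes 15 were tested, and AGL42, a MADS-box gene of flowering time, was the 1 that passed, with 273, 659, 289 and 503 in stem, against 124, 60.2 and 78.1 in leaf. Over all genes 9.47% were higher. No seed marker had a named probe set, and the root marker with one, PYK10, was lower in stem. Of all 48 fixed markers, 10 had a named probe set and 5 were tested, so the organ labels could be checked at few genes.

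Most calls were made again without stem replicate 3. The 6 other arrays gave 1627 probe sets higher in stem and 1666 lower. Of the higher calls of all 7 arrays, 1478 (90.8%) were called again, which is 90.8% of the higher calls without that array. Of the lower calls 1457 (90.0%) were called again, 87.5% of the lower calls without it. Of the 3245 called probe sets 3194 were tested in both fits, and among these none changed sign and 9 moved by over 1.5 times. Among the genes named by the fixed rule, CSLA01 was the 1 that lost its call.

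Fewer named genes kept their call within a growth site, where 1 array stands for an organ. Among growth chamber arrays alone 18 of the 86 named genes lost their call with the same sign, and CSLA01 changed sign. Of those not yet mentioned, AGL42, scpl47, WLIM2a and CYP84A4 were at 1.56, 1.97, 0.99 and 0.84, all higher in stem. YAB3, RR16, UGT72E1, UGT87A2 and GLR2.7 kept large differences of -2.97, -2.75, -2.69, -3.04 and -2.35 without passing, and CRR42, GSTU16, CHIL and AT3G09720 were at -1.25, -1.02, -1.27 and -0.93. Among greenhouse arrays alone 7 named genes lost their call, among them psbK, CHIL and AT4G00780 at 1.63, -0.94 and -0.73.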

How the data were processed

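The authors deposited signal intensity from Microarray Suite 5.0 with a target of 500, per the labels, which also state a scaling to a GapC signal of 8500. The deposited columns had 2% trimmed means of 500, so that scaling had not been applied. Each array was brought to a trimmed mean of exactly 500, the 7 arrays were quantile normalised together, and log2(intensity + 32) was taken. Detection calls were not used here. The 64 control probe sets were left out, and of 22810 probe sets the 15975 with at least 100 in at least 3 arrays were tested. As leaf has 3 arrays, a gene seen only in leaf had to reach 100 in all of them. Stem minus leaf was estimated by lmFit and eBayes with trend (limma 3.58.1, R 4.3.3) and called at a Benjamini-Hochberg adjusted p under 0.05 and an absolute log2 fold change of at least 1. The number of arrays limits the precision. Figures were drawn in Python 3.11.15.

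Per the platform's probe table, 13513 probe sets stand for 1 gene, 503 for several and 8730 for none. A gene table of assembly TAIR10.1 matched 13436 of them and was used for names, synonyms and gene order only. Each gene was read by its probe set with the highest mean. Of the 8740 genes tested, 1206 had a symbol. Of 84 genes with several tested probe sets 13 had unequal calls and none opposite ones. The 61 gene lists were matched by symbol or synonym, and 43 held at least 3 tested genes.

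The arrays, gene lists and tests were chosen with earlier results of these data known. Named genes were called genes with a symbol and no overlap of arrays (the 10 largest each way), up to 2 called members each way of each list with at least 3 tested genes, up to 5 each way known by a synonym only, and GapC. Other list members, and the loci with no symbol, were named after their values were seen. Replicate numbers pair no arrays: same-numbered stem and leaf arrays had correlations of their deviations of -0.09, -0.12 and -0.03. Alternatives covered scaling, pseudocount, filter, trend, growth site, replicate block, the flower arrays in the fit, no minimum fold, and each array left out; growth site with stem replicates 2 and 3 exchanged, and GapC scaling without stem replicate 3, were added after seeing the data. The steps were tested on simulated data with planted changes.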

Additional observations from a re-analysis of the deposited data

Results flagged for a closer look

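Of 134 sets of 4 stem values checked, 14 had 1 stem array far from the rest by Dixon's ratio of the gap to the whole range. Chance gives about 1 in 20 for independent sets of normally distributed values. These sets share genes and many were chosen for a large difference, so that rate is only a rough guide. The control ratios of stem replicate 3 were 12.2 for actin and 13.05 for GAPDH, both the highest of the stem arrays. In the same array EXLA1 was high at 21196 against 10454 to 12202 in the other stem arrays, AT4G08160 (ATXYN3) was high at 1612 against 753 to 867, and ATSPS4F was high at 425 against 84.6 to 135. psbK was low there at 7404 against 36491 to 37506. Mean log2 levels were low in stem replicate 3 for the plastid-encoded photosystem, cytochrome and ATP synthase genes (11.73), the plastid-encoded expression machinery (11.14) and the bHLH genes (8.53). In stem replicate 4, LUP5 was low at 542 against 829 to 875 and ATG8H at 526 against 853 to 902, the nuclear NDH assembly genes had a low mean log2 level of 8.51, and the cell cycle and chromatin genes a high one of 8.57. WRKY genes were high in stem replicate 2, with a mean log2 level of 8.59. Stem replicate 3 held 9 of the 14.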

How the results depend on the processing

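Probe sets higher in stem numbered 1627 and lower 1618, and list genes 95 and 49. With each array scaled to GapC the probe sets were 3512 and 564 and the list genes 156 and 25, and with stem replicate 3 also left out 3375 and 605, and 156 and 26. With no minimum fold they were 2594 and 2985, with 82 list genes lower. Among growth chamber arrays alone 1021 probe sets and 32 list genes were lower, and among greenhouse arrays alone 2477 and 79. Leaving out 1 array at a time gave 1475 to 1699 probe sets higher and 1195 to 1666 lower, 90 to 101 list genes higher and 32 to 51 lower. The fewest lower list genes, 32, came without leaf replicate 3, when genes seen only in leaf cannot reach 3 arrays. GapC scaling fixes the GapC probe set, so it has no value there; elsewhere its log2 fold change stayed negative, and without 1 array it was -0.52 to -0.33.

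Of 86 named genes 57 kept their call in each of the 25 alternatives that tested them. CSLA01 turned to 0.057 in the growth chamber arrays. GapC scaling took 10 calls, HEME1, HEME2, CRR42, SIR, TRY, GSTU16, CHIL, CSLA01, AT3G09720 and AT4G00780, all lower in stem. A pseudocount of 100 moved 28 named genes by over 1.5 times and 1 moved 23. The replicate block gave 1563 and 1629 probe sets and, of the named genes, lost TRY, CSLA01 and AT4G00780. Exchanging the site labels of stem replicates 2 and 3 gave 1598 and 1581. Signals near 100 and the number of arrays set the limits: no alternative separates organ from age or RNA preparation.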

Other observations

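Some genes higher in stem sat beside each other on the chromosome. In the order of the TAIR10.1 gene table, 2942 pairs of adjacent genes were both tested. Both genes were higher in stem in 37 pairs, both lower in 20, and they went opposite ways in 40. Of the 561 tested neighbours of genes higher in stem, 74 (13.2%) were higher themselves, against 9.47% of all tested genes, and of the 525 neighbours of genes lower in stem, 40 (7.62%) were lower, against 8.82% of all. The pairs with named members higher in stem included EXLA3 with EXLA1, XTH18 with XTH19 and BGLU45 with BGLU46. Members of such pairs resemble each other in sequence, and probes shared between them were not examined. NAI2, a protein of the same endoplasmic reticulum bodies as PYK10, was chosen after its values were seen. It had 3.03, 20.7, 34.7 and 4.91 in stem, against 343, 184 and 299.6 in leaf, a log2 fold change of -2.70 ± 0.39 (SE).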
